A study of Mus musculus with 10 samples.

Results

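Vitamin A handling was described through 9 genes of the mouse small intestine, Bco1, Scarb1, Isx, Rbp2, Rbp4, Lrat, Rdh7, Dhrs9 and Aldh1a1. They were chosen by gene name for carotenoid uptake and cleavage, retinol binding, esterification and retinoic acid synthesis, 9 of the 54532 genes in the count table. Each was measured by RNA sequencing in GUCY2Chi and GUCY2Cmed cells, which are intestinal epithelial cells with high and medium GFP fluorescence. Both groups came from the same 5 Gucy2c-GFP mice of the outbred CD1/ICR strain, litter-matched and 10 weeks old, in which the Gucy2c promoter drives the reporter. The labels name no treatment, and 20000 live single cells per library were sorted on fluorescence, with no antibody named in the methods. Each group has 5 libraries, numbered 2, 7, 12, 14 and 15 in the labels, and a shared number was read as a shared mouse. Library totals ran from 10903958 to 15307932 counts.

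Dietary carotenoids enter the enterocyte through the scavenger receptor encoded by Scarb1, and Bco1 encodes the oxygenase that splits beta-carotene into retinaldehyde. The homeobox factor Isx is known to restrain both genes when retinoic acid is plentiful. Retinol in the enterocyte is held by the carrier made from Rbp2, esterified by the product of Lrat and exported in chylomicrons, or oxidised to retinaldehyde and on to retinoic acid by dehydrogenases such as those of Rdh7, Dhrs9 and Aldh1a1. Rbp4 encodes the carrier of retinol in blood, best known as a product of the liver.

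The promoters of 4 of these genes are shown because the genes stand for the opposite patterns described here, with Bco1 and Rbp4 higher and Isx and Rbp2 at lower levels in GUCY2Chi cells. Each run is the 250 bases before a RefSeq start on the mouse assembly GRCm38.p6, read 5' to 3' on the strand of the gene, and capitals mark AGGTCA, the hexamer bound by nuclear receptors, on either strand. Bco1 is chr8:117095615-117095864 (+), Rbp4 is chr19:38125322-38125571 (-), Isx is chr8:74872924-74873173 (+) and Rbp2 is chr9:98490287-98490536 (+), the last before a start 4422 bases downstream of that in the count table.
Bco1: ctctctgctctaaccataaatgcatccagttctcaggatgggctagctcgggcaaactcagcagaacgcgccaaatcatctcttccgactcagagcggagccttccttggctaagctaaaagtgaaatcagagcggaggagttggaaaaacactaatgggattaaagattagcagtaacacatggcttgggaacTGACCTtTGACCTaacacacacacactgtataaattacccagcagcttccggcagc
Rbp4: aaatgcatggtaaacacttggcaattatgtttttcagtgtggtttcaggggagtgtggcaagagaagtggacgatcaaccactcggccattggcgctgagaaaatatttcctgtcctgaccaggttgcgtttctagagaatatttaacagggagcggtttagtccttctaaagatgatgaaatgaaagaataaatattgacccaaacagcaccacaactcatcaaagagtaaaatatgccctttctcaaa
Isx: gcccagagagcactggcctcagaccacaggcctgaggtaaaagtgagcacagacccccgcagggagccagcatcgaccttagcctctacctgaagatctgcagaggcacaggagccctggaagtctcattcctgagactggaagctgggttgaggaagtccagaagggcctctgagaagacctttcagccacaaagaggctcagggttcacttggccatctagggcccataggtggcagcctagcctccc
Rbp2: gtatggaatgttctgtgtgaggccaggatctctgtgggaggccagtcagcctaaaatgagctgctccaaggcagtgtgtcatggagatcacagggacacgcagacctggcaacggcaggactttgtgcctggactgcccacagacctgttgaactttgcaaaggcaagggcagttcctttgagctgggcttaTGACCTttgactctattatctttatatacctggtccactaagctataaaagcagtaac
RefSeq gave 11 such windows for 8 of the 9 genes, with none for Scarb1. AGGTCA lay in 4 of the 11, those of Bco1, Rbp2 and Dhrs9 and 1 of the windows of Rdh7, and in 4607 of 32851 promoters of the same length. In Bco1 it occurred as a direct repeat, AGGTCANAGGTCA, from 56 to 44 bases before the start, an arrangement that includes the single hexamer and was found in 11 promoters of the genome (0.0335%). The Rbp2 window held the hexamer from 58 to 53 bases before the start and CAAAGTCC, a short HNF4-like sequence found in 1.2% of promoters, from 133 to 126 bases before it. The homeodomain core TAATTA was in 0 of the 11 windows (4.84% of promoters), TATAAA in 4 (12.4%), the CDX-like TTTATNG in 3 (9.81%) and the GATA-like AGATAA in 2 (9.99%). For Rbp4 the TATAAA and TTTATNG matches lay in a further window that is not shown. Its start lies 510 bases downstream of that in the count table. Both strands were searched, and these matches describe letters in a window, not bound sites.

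The libraries differed in their levels of markers of other epithelial cells, and the part of this in the other values was not tested. The summed level of 20 enterocyte markers was 4456, 3338 and 4566 cpm (counts scaled to library size with edgeR's TMM factors) in the GUCY2Chi libraries of mice 2, 7 and 14, and 29882 and 30824 cpm in those of mice 12 and 15. The GUCY2Cmed libraries held 53417 to 74499 cpm, so the GUCY2Chi level was 5.98%, 6.25%, 45.8%, 7.12% and 42.7% of that in the same mouse for mice 2, 7, 12, 14 and 15. The defining markers of enteroendocrine cells, the hormone cells of the gut, summed to between 40647 and 161275 cpm in GUCY2Chi cells, lowest in mouse 15, and to between 148 and 345 cpm in GUCY2Cmed cells. At an adjusted p under 0.01 in edgeR, all 18 of these markers were higher in GUCY2Chi cells and 6 of the 20 enterocyte markers were lower. Of all genes tested, 13.9% were called higher and 8.79% lower. All 20 enterocyte markers had lower levels in GUCY2Chi cells in every mouse, with a median log2 fold change of -2.265. Gucy2c, whose promoter drives the reporter, was itself higher, by 1.71 on the log2 scale (edgeR, adjusted p = 0.00187). In goblet and Paneth markers GUCY2Chi libraries held 8833 to 42040 cpm and GUCY2Cmed libraries 7570 to 16666 cpm, and in tuft markers 14.7 to 38.5 and 6.50 to 22.0 cpm. Summed markers reached at most 16.6 cpm for mesenchyme and endothelium, of which 2 of the 3 genes tested (Col1a2 and Pecam1) were higher in GUCY2Chi cells, 8.74 cpm for myeloid and dendritic cells and 40.2 cpm for T cells. A list of 8 forebrain genes ranged from 28.7 to 1223 cpm over the 10 libraries. In bulk samples such as these, fewer cells of a type and less RNA per cell cannot be told apart.

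Of the 9 vitamin A genes, 3 were higher in GUCY2Chi cells, Rbp4, Bco1 and Scarb1, and 1 was lower, Isx, at an adjusted p under 0.01 in edgeR's quasi-likelihood test. Rbp2, Lrat, Rdh7, Dhrs9 and Aldh1a1 had lower means in GUCY2Chi cells but did not pass this threshold. Among all 15703 genes tested, 13.9% were called higher and 8.79% lower, 22.7% in all. The GUCY2Chi and GUCY2Cmed libraries did not overlap for 3 genes with higher levels and 5 with lower levels in GUCY2Chi cells, against 16.7% and 13.2% of all genes tested, 29.9% in all. The median log2 fold change was -1.86 over the 9 genes and 0.09 over all genes tested.

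**Figure D1:**
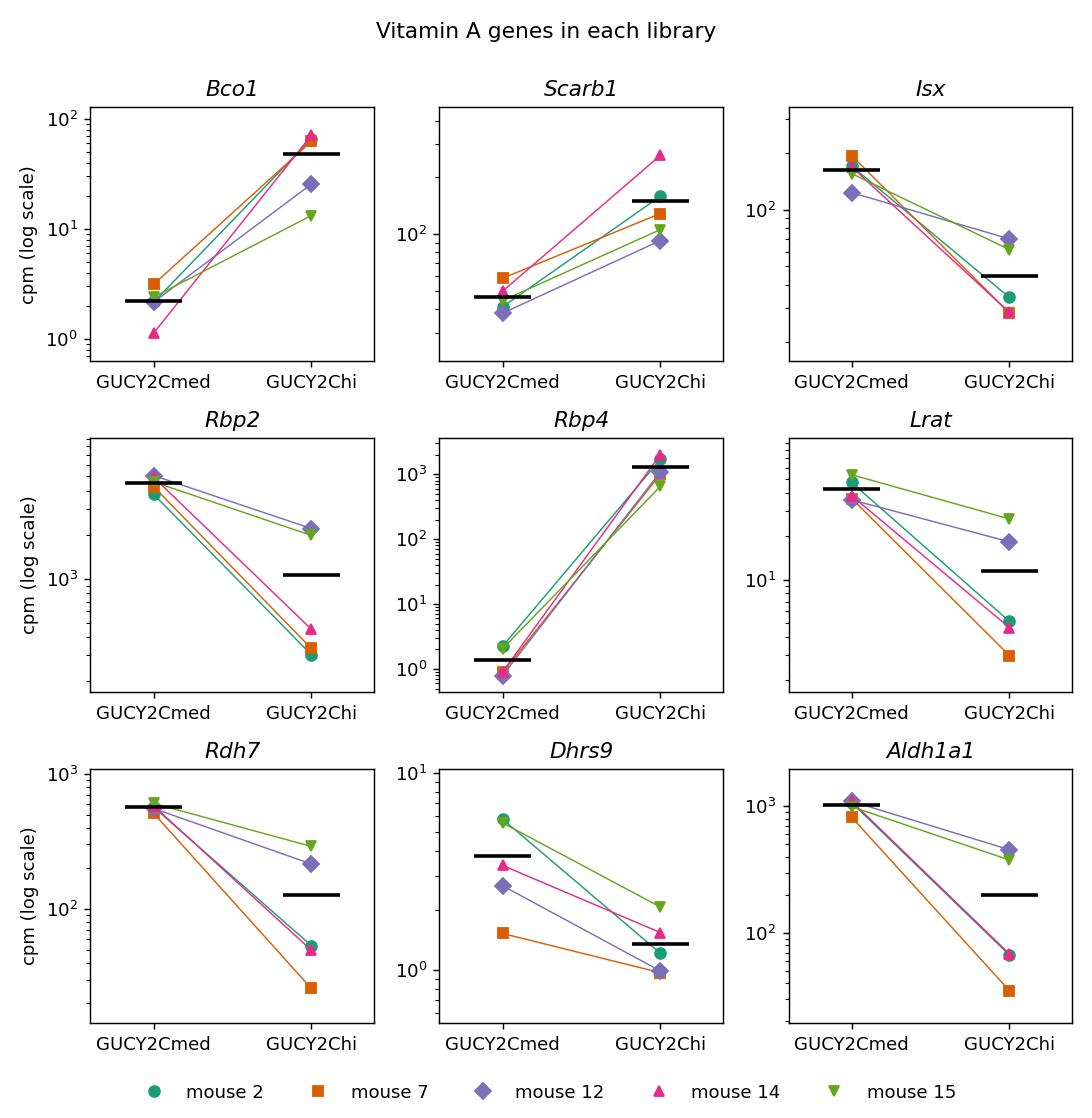
Level of each of the 9 genes in each library, in cpm on a log axis, with GUCY2Cmed at the left and GUCY2Chi at the right of each panel. A line joins the 2 libraries of a mouse, and black bars are group means (n = 5); Bco1, Scarb1 and Rbp4 ran upward in every mouse and the other 6 genes downward.

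Bco1 and Scarb1, for carotenoid cleavage and uptake, were higher in GUCY2Chi cells, and Isx was lower; Bco2 and Cd36, further genes of this role given later, had lower means. Bco1 (ENSMUSG00000031845, chromosome 8, 117095854 to 117133720) had 65.8, 62.3, 25.5, 70.8 and 13.2 cpm in the GUCY2Chi libraries of mice 2, 7, 12, 14 and 15, and 2.15, 3.13, 2.16, 1.13 and 2.40 cpm in their GUCY2Cmed libraries. The groups did not overlap, and the lowest GUCY2Chi values were those of mice 12 and 15. The means were 47.5 ± 26.2 and 2.19 ± 0.718 cpm (SD, n = 5), and the log2 fold change was 4.43 (standard error, SE, 0.49, adjusted p = 7.71e-05), a 21.6-fold difference. Within single mice the ratio ran from 5.52-fold in mouse 15 to 62.8-fold in mouse 14.

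Scarb1 (ENSMUSG00000037936, chromosome 5, 125277087 to 125341094), whose receptor takes up carotenoids and other lipids, was measurable in both groups. Its GUCY2Chi libraries had 159, 128, 92.4, 261 and 106 cpm, and the GUCY2Cmed libraries 41.1, 58.3, 38.0, 49.8 and 44.3 cpm. Every GUCY2Chi value lay above every GUCY2Cmed value, with that of mouse 14 the highest. The log2 fold change was 1.69 (SE 0.28, adjusted p = 9.80e-04), from 149 ± 67.5 and 46.3 ± 7.99 cpm (SD, n = 5), and the ratio within a mouse was 2.20-fold to 5.25-fold.

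Isx (ENSMUSG00000031621, chromosome 8, 74873173 to 74893506) encodes an intestine-specific homeobox factor. Its level was 34.3, 28.3, 69.9, 28.6 and 61.4 cpm in GUCY2Chi cells of mice 2, 7, 12, 14 and 15, and 170, 193, 123, 168 and 155 cpm in GUCY2Cmed cells. All GUCY2Chi libraries were below all GUCY2Cmed libraries, and those of mice 12 and 15 had the highest values of their group. Isx fell by 1.86 on the log2 scale (SE 0.28, adjusted p = 6.37e-04), from 162 ± 25.7 to 44.5 ± 19.7 cpm (SD, n = 5).

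Of the 2 retinoid carriers, Rbp4 was called higher in GUCY2Chi cells and Rbp2 was not called. Rbp4 (ENSMUSG00000024990, chromosome 19, 38116620 to 38125321) had 1690, 997, 1084, 1999 and 648 cpm in the GUCY2Chi libraries of mice 2, 7, 12, 14 and 15, and 2.25, 0.883, 0.792, 0.901 and 2.05 cpm in the GUCY2Cmed libraries, where it rested on 11 to 24 counts. The groups were separated by a wide gap in every mouse, from 315-fold in mouse 15 to 2219-fold in mouse 14. The log2 fold change was 9.87 (SE 0.54, adjusted p = 1.72e-06), from 1284 ± 549 and 1.38 ± 0.712 cpm (SD, n = 5).

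Rbp4 is a known hepatocyte gene, and other genes of that cell were also present. Of 10 hepatocyte markers 6 were tested and 4 were higher in GUCY2Chi cells, Alb, Serpina1b, Afp and Ambp, beside 13.9% of all genes tested. The list summed to 1919 to 16993 cpm in GUCY2Chi and to 4.32 to 21.0 cpm in GUCY2Cmed libraries. Most of this sum was Afp and Ambp, with means of 5570 and 1140 cpm in GUCY2Chi cells, against 23.3 cpm for Alb and 25.0 cpm for Serpina1b. The markers Ahsg, Fgb and Fgg had no count in any GUCY2Chi library. Fga, also too low to be tested, had means of 0.125 cpm in GUCY2Chi and 0.0187 cpm in GUCY2Cmed cells. Apoh had 3.22 cpm in GUCY2Chi and 3.57 cpm in GUCY2Cmed cells, and Cyp2e1 had 0.698 and 0.693 cpm. Per 1000 cpm of enteroendocrine markers, Rbp4 was at 7.21 to 15.9 cpm in GUCY2Chi libraries and at 2.74 to 8.37 cpm in GUCY2Cmed libraries, which overlapped. Bco1 on the same scale was at 0.252 to 0.466 and 3.42 to 21.2 cpm, the opposite order to that of its plain level. This reversal was fixed in advance, since the enteroendocrine sums were 40647 to 161275 cpm in GUCY2Chi and 148 to 345 cpm in GUCY2Cmed libraries. A gene raised by less than this gap had to reverse, as Scarb1 also did.

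Rbp2 (ENSMUSG00000032454, chromosome 9, 98486115 to 98509781), the retinol carrier of the absorptive cell, had 304, 335, 2204, 453 and 1978 cpm in GUCY2Chi cells of mice 2, 7, 12, 14 and 15, and 3777, 4257, 5066, 4932 and 4586 cpm in GUCY2Cmed cells. No libraries overlapped between the groups, but the GUCY2Chi values fell into a low set and a higher pair, the pair being mice 12 and 15. The log2 fold change was -2.10 (SE 0.58, adjusted p = 0.0146), from 1055 ± 951 and 4524 ± 523 cpm (SD, n = 5), above the threshold of 0.01.

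Lrat (ENSMUSG00000028003, chromosome 3, 82892579 to 82903973) encodes the enzyme that esterifies retinol for storage and transport. In GUCY2Chi libraries it had 5.11, 2.95, 18.3, 4.63 and 26.4 cpm, and in GUCY2Cmed libraries 47.5, 36.7, 35.9, 38.4 and 53.7 cpm. The groups did not overlap, and mice 12 and 15 were again the highest in GUCY2Chi cells. Its log2 fold change was -1.88 (SE 0.54, adjusted p = 0.0171), from 11.5 ± 10.4 and 42.4 ± 7.83 cpm (SD, n = 5).

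Among genes of retinol oxidation, Rdh7 and Aldh1a1 divided by mouse as Rbp2 and Lrat did, and Dhrs9 did not. Rdh7 (ENSMUSG00000040134, chromosome 10, 127884028 to 127888817), a short-chain retinol dehydrogenase gene, had 53.5, 25.7, 215, 49.5 and 290 cpm in GUCY2Chi libraries and 567, 512, 555, 580 and 605 cpm in GUCY2Cmed libraries. The GUCY2Cmed values lay close together, and the GUCY2Chi values spread over a wide range below them. The log2 fold change was -2.15 (SE 0.58, adjusted p = 0.0131), from 127 ± 118 and 564 ± 34.5 cpm (SD, n = 5). Near-identical family members (Rdh1, Rdh9, Rdh16, Rdh16f2 and Rdh19) could share its reads, so this value is uncertain.

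Dhrs9 (ENSMUSG00000027068, chromosome 2, 69380445 to 69404533), which encodes a dehydrogenase of the same class, was scarce, with 13 to 65 counts per library. It had 1.21, 0.965, 0.984, 1.54 and 2.08 cpm in GUCY2Chi libraries and 5.80, 1.53, 2.66, 3.38 and 5.56 cpm in GUCY2Cmed libraries. The groups overlapped, although the GUCY2Chi value was the lower in 5 of 5 mice. Its log2 fold change was -1.47 (SE 0.42, adjusted p = 0.0166).

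Aldh1a1 (ENSMUSG00000053279, chromosome 19, 20492715 to 20643462) encodes an aldehyde dehydrogenase that makes retinoic acid. Its level was 66.9, 35.0, 454, 68.3 and 377 cpm in GUCY2Chi libraries and 1070, 820, 1093, 1096 and 993 cpm in GUCY2Cmed libraries. No overlap was seen, and the GUCY2Chi libraries of mice 12 and 15 stood above the other 3. The log2 fold change was -2.34 (SE 0.65, adjusted p = 0.0146), from 200 ± 199 and 1015 ± 116 cpm (SD, n = 5). Its close paralog Aldh1a7 could share reads with it.

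Tested gene by gene on log2(cpm + 0.5), the exact permutation test (two-sided) gave p = 0.00794 for each of the 9 genes except Dhrs9, the smallest value that 5 libraries against 5 allow, and p = 0.0238 for Dhrs9. This test ignores the pairing by mouse, and an exact permutation within 5 pairs cannot go below p = 0.0625. For Rbp2, Lrat, Rdh7 and Aldh1a1 the GUCY2Chi libraries of mice 12 and 15 held the highest values of their group, so leaving both out had to lower the fold change. The log2 fold changes were then -3.62, -3.31, -3.70 and -4.14 in that order, a description of the other libraries and no support for a call. With a single library left out the threshold was passed for Rbp2 (-2.56 without GUCY2Chi of mouse 12, -2.42 without that of mouse 15), for Lrat (-2.42) and Rdh7 (-2.68) without GUCY2Chi of mouse 15, and for Aldh1a1 (-2.89) without GUCY2Chi of mouse 12. Dhrs9 passed without the GUCY2Cmed library of mouse 7 (-1.67). The number of vitamin A genes called lower was then 3, 4 and 2 without GUCY2Chi of mouse 12, GUCY2Chi of mouse 15 and GUCY2Cmed of mouse 7. The same 4 genes also passed in limma-voom, and these and Dhrs9 in DESeq2. With the mouse as replicate block, adjusted p for the 4 genes was 0.0113, 0.0115, 0.0113 and 0.0115 in edgeR and 0.00348, 0.00732, 0.00402 and 0.00367 in limma-voom. Over all 20 alternatives the adjusted p of Rbp2, Lrat, Rdh7 and Aldh1a1 reached 0.0396, 0.0539, 0.0404 and 0.0392 at the highest.

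Compared within each mouse, the percentages of Rbp2, Lrat, Rdh7 and Aldh1a1 were lower in mice 2, 7 and 14 and higher in mice 12 and 15, as were those of the enterocyte markers. The GUCY2Chi level of Rbp2 was 8.04%, 7.87%, 43.5%, 9.18% and 43.1% of the GUCY2Cmed level in mice 2, 7, 12, 14 and 15, which is 0.949 to 1.34 times the percentage of the summed enterocyte markers. Aldh1a1 stood at 6.25%, 4.27%, 41.5%, 6.23% and 38.0%, Rdh7 at 9.44%, 5.03%, 38.8%, 8.53% and 48.0%, and Lrat at 10.8%, 8.05%, 51.0%, 12.1% and 49.2%. Isx had 20.2%, 14.7% and 17.0% in mice 2, 7 and 14, which is 3.38, 2.35 and 2.39 times the enterocyte percentage, and 56.9% and 39.6% in mice 12 and 15. Dhrs9 did not follow this order, with 20.9%, 63.2%, 36.9%, 45.6% and 37.4%.

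**Figure D2:**
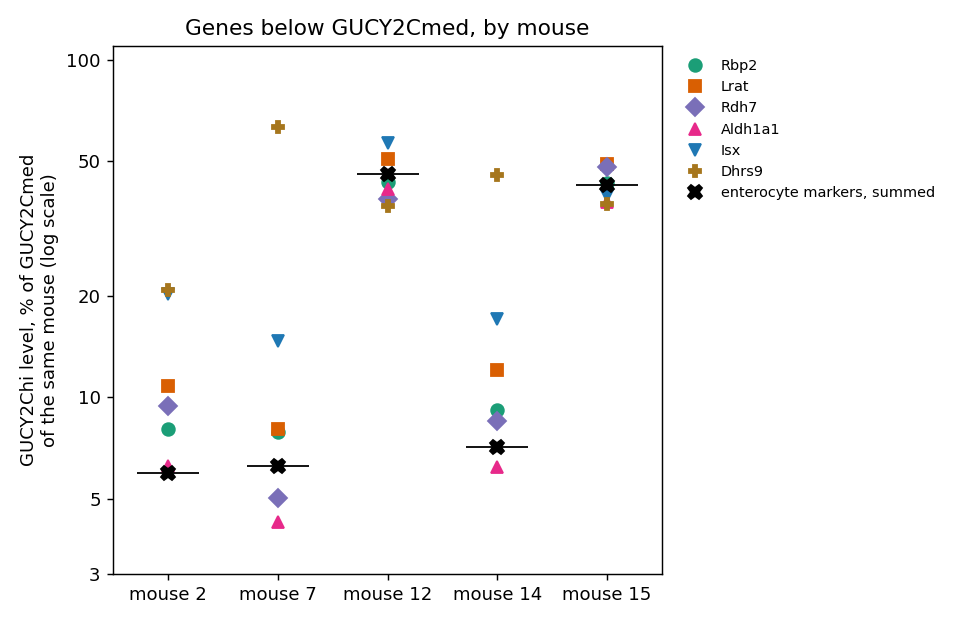
GUCY2Chi level as a percentage of the GUCY2Cmed level of the same mouse (log axis) for the 6 genes with lower means, with the 20 summed enterocyte markers as black crosses on short lines. Rbp2, Lrat, Rdh7 and Aldh1a1 were at 4.27% to 12.1% in mice 2, 7 and 14 and at 38.0% to 51.0% in mice 12 and 15, with Lrat in mouse 14 at 1.69 times the cross, while Isx and Dhrs9 were at 2.35 to 10.1 times the crosses in mice 2, 7 and 14.

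Expressed per 1000 cpm of enterocyte markers, the 6 lower genes overlapped between the groups and the 3 higher genes did not. For the 3 higher genes this outcome was fixed in advance. Every GUCY2Chi library had a smaller enterocyte sum than every GUCY2Cmed library, so the division could only widen their gap. Rbp2 was at 64.2 to 100 cpm on this scale in GUCY2Chi libraries and at 50.7 to 79.7 cpm in GUCY2Cmed libraries, and Aldh1a1 at 10.5 to 15.2 and 13.7 to 17.1 cpm. For Rdh7 the medians were 9.41 and 8.51 cpm, and for Lrat the ranges were 0.613 to 1.15 and 0.551 to 0.744 cpm. Isx ranged from 1.99 to 8.49 cpm in GUCY2Chi and from 1.89 to 3.62 cpm in GUCY2Cmed libraries, and the former reached higher values. These ratios describe the libraries, and the part of enterocyte RNA in the lower levels was not tested.

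Levels between genes were compared as cpm per kilobase of the gene length in the count table. In GUCY2Cmed cells the order was Rbp2 (4702), Rdh7 (336), Aldh1a1 (206), Isx (90.3), Lrat (7.93), Scarb1 (5.45), Rbp4 (1.06), Dhrs9 (0.885) and Bco1 (0.863 cpm per kilobase). The last 3 had overlapping ranges over libraries, as had Lrat and Scarb1, and no other neighbours overlapped. In GUCY2Chi cells the order was Rbp2 (1096), Rbp4 (990), Rdh7 (75.6), Aldh1a1 (40.6), Isx (24.8), Bco1 (18.7), Scarb1 (17.6), Lrat (2.15) and Dhrs9 (0.317 cpm per kilobase). Here Rbp2 and Rbp4 could not be told apart, with ranges of 316 to 2291 and 499 to 1541 cpm per kilobase, and the genes from Rdh7 to Scarb1 also overlapped from neighbour to neighbour. By its mean Rbp4 was second in GUCY2Chi cells and among the last 3, whose order is not resolved, in GUCY2Cmed cells.

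**Figure D3:**
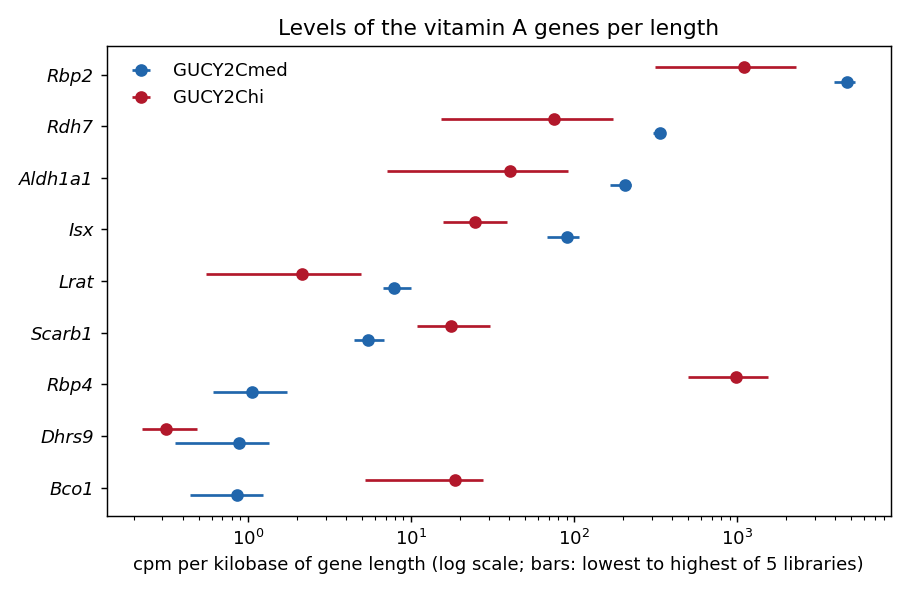
Mean level of each gene per kilobase of gene length in GUCY2Cmed (blue) and GUCY2Chi (red) cells, on a log axis in cpm per kilobase, with bars from the lowest to the highest of 5 libraries. Rbp2 had the highest mean in both groups (4702 and 1096), but in GUCY2Chi cells its range overlapped that of Rbp4 (mean 990, against 1.06 in GUCY2Cmed cells), which exceeded it in the libraries of mice 2, 7 and 14.

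The wider retinoid pathway was followed in 44 further genes, of which 33 passed the filter on low counts and 11 did not. Of the 33, 2 were higher in GUCY2Chi cells and 11 lower, beside 13.9% and 8.79% of all genes tested, with a median log2 fold change of -1.39. Groups did not overlap for 3 genes with higher and 17 with lower levels, beside 16.7% and 13.2% of all genes tested. The 11 genes left untested were Crabp1, Crabp2, Stra6, Rlbp1, Rdh1, Rdh19, Sdr16c6, Aldh1a2, Aldh1a3, Cyp26c1 and Rarb. The count of lower genes rested on single libraries: it was 4, 6 and 6 without the GUCY2Chi libraries of mice 2, 7 and 14, and 6, 5, 6 and 5 without the GUCY2Cmed libraries of mice 2, 12, 14 and 15. Without both GUCY2Chi libraries of mice 12 and 15, where most of the lower genes are highest within the group, it was 20, a rise that this choice of libraries favours.

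Among the genes for partners of the RBP4 protein, Stra6l rose as Rbp4 did. Stra6l, a gene for a membrane receptor of this protein, had 50.2, 55.4, 25.7, 72.2 and 20.6 cpm in the GUCY2Chi libraries of mice 2, 7, 12, 14 and 15, and 1.73 to 4.42 cpm in GUCY2Cmed libraries. The groups did not overlap, mouse 15 was the lowest of its group, and its log2 fold change was 3.77 (SE 0.40, adjusted p = 5.71e-05). Ttr, whose product binds RBP4 in blood, had 79.8 to 135 cpm in GUCY2Chi and 6.26 to 67.8 cpm in GUCY2Cmed libraries. It was higher in 5 of 5 mice without overlap, with a log2 fold change of 1.31 that missed the threshold (adjusted p = 0.0545). Within each group Ttr was lowest and highest where the 8 summed forebrain genes were. These were mice 7 (28.7 cpm of forebrain genes) and 12 (688 cpm) in GUCY2Cmed, and mice 2 (79.6 cpm) and 15 (1223 cpm) in GUCY2Chi libraries. The forebrain sums overlapped between the groups, and their part in the Ttr level was not tested.

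Of the further genes that act on dietary carotenoids and retinyl esters, 2 were lower in GUCY2Chi cells and 3 did not pass the threshold. The share called lower among all genes tested was 8.79%. Plb1, a brush border lipase gene, and Lipe, the gene of hormone-sensitive lipase, fell by 2.44 and 2.38 on the log2 scale (adjusted p = 0.00540 and 0.00176). Plb1 overlapped between the groups, since the GUCY2Cmed library of mouse 7 had 16.6 cpm and that of mouse 2 had 182 cpm. With the mouse as replicate block in edgeR the adjusted p of Plb1 was 0.0253. Dgat1, an acyltransferase gene that can also esterify retinol, was at -2.08 on the log2 scale (adjusted p = 0.0107), as was Bco2, a further carotenoid oxygenase gene (adjusted p = 0.0248). Both passed with the mouse as replicate block in edgeR (adjusted p = 0.00957 and 0.00632). For Cd36, a gene for a fatty acid transporter, the value was -1.90 (adjusted p = 0.0239).

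Of the enzymes that act on retinol and retinaldehyde, Rdh12 alone was called higher and 6 were called lower. The rest of the tested genes of this role did not pass the threshold. Of all genes tested, 13.9% were called higher and 8.79% lower. Rdh12 had 13.1, 10.9, 5.45, 13.6 and 3.72 cpm in GUCY2Chi cells of mice 2, 7, 12, 14 and 15 and 0.0803 to 1.88 cpm in GUCY2Cmed cells. The groups did not overlap, and the log2 fold change was 3.66 (SE 0.65, adjusted p = 0.00148). This call was lost with the mouse as replicate block in edgeR (adjusted p = 0.0125) and kept with that block in limma-voom (adjusted p = 0.00595). Adh1, a cytosolic alcohol dehydrogenase gene, fell by 1.29 on the log2 scale, from 4625 ± 1731 to 1895 ± 412 cpm (SD, n = 5, adjusted p = 0.00614 from edgeR). Adh4 fell by 2.24 (adjusted p = 0.00385), Retsat, the retinol saturase gene, by 2.02 (0.00614), Dhrs3 and Dhrs4, which encode retinaldehyde reductases, by 1.64 (0.00258) and 1.39 (0.00123), and Rdh11 by 0.68 (0.00947). Rdh10, a major retinol dehydrogenase gene of the embryo, stood at -1.46 on the log2 scale (adjusted p = 0.0144), Rdh16f2 at -1.97 (0.0378) and Rdh14 at -0.12 (0.543), the sign of the last turning with library size in place of TMM factors (0.16). With the mouse as replicate block in edgeR Adh1 and Rdh11 lost their calls (adjusted p = 0.0242 and 0.0178). With this block in limma-voom Adh1 kept its call and Rdh11 did not (adjusted p = 0.00858 and 0.0144).

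Aldh1a7, the paralog of Aldh1a1, fell by 2.50 on the log2 scale (adjusted p = 0.00145), and reads could have been shared between the pair. The nuclear receptor genes Rara and Rxra, which encode the receptors that carry the retinoic acid signal to DNA, fell by 1.77 and 1.56 (adjusted p = 0.00493 and 9.77e-04). Rara had 2.39 to 10.6 cpm in GUCY2Chi and 13.7 to 33.0 cpm in GUCY2Cmed libraries, and Rxra 11.2 to 21.4 and 35.7 to 66.1 cpm, neither with overlap. Rxrb, the gene of a partner receptor, had 30.0 to 39.9 and 35.7 to 48.1 cpm, with a log2 fold change of -0.20 (adjusted p = 0.295) that was 0.10 with library size in place of TMM factors.

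Several of these calls depended on single libraries. Stra6l, Rdh12, Lipe, Dhrs4, Aldh1a7 and Rxra kept their calls in all 10 fits that left out 1 library. Dhrs3 lost its call without GUCY2Chi of mouse 2 (adjusted p = 0.0109). Rdh11 passed only without GUCY2Chi of mouse 12, Adh1 only without that library or GUCY2Cmed of mouse 2, and Retsat only without GUCY2Chi of mouse 12 or 15, with adjusted p of up to 0.0264, 0.0216 and 0.0210 in the other fits. Plb1, Rara and Adh4 kept their calls in 3, 4 and 5 of the 10, with adjusted p of up to 0.0174, 0.0193 and 0.0141. Bco2, Cd36, Dgat1, Rdh10 and Rdh16f2 passed without GUCY2Chi of mouse 15, with log2 fold changes of -2.78, -2.62, -2.54, -1.87 and -2.62. Over all alternatives, adjusted p ranged from 3.71e-05 to 0.0253 for Plb1, from 1.13e-05 to 0.0353 for Dgat1, from 4.04e-05 to 0.0790 for Bco2, from 2.21e-08 to 0.0125 for Rdh12, from 1.29e-05 to 0.0242 for Adh1 and from 0.00105 to 0.0350 for Rdh11.

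**Figure D4:**
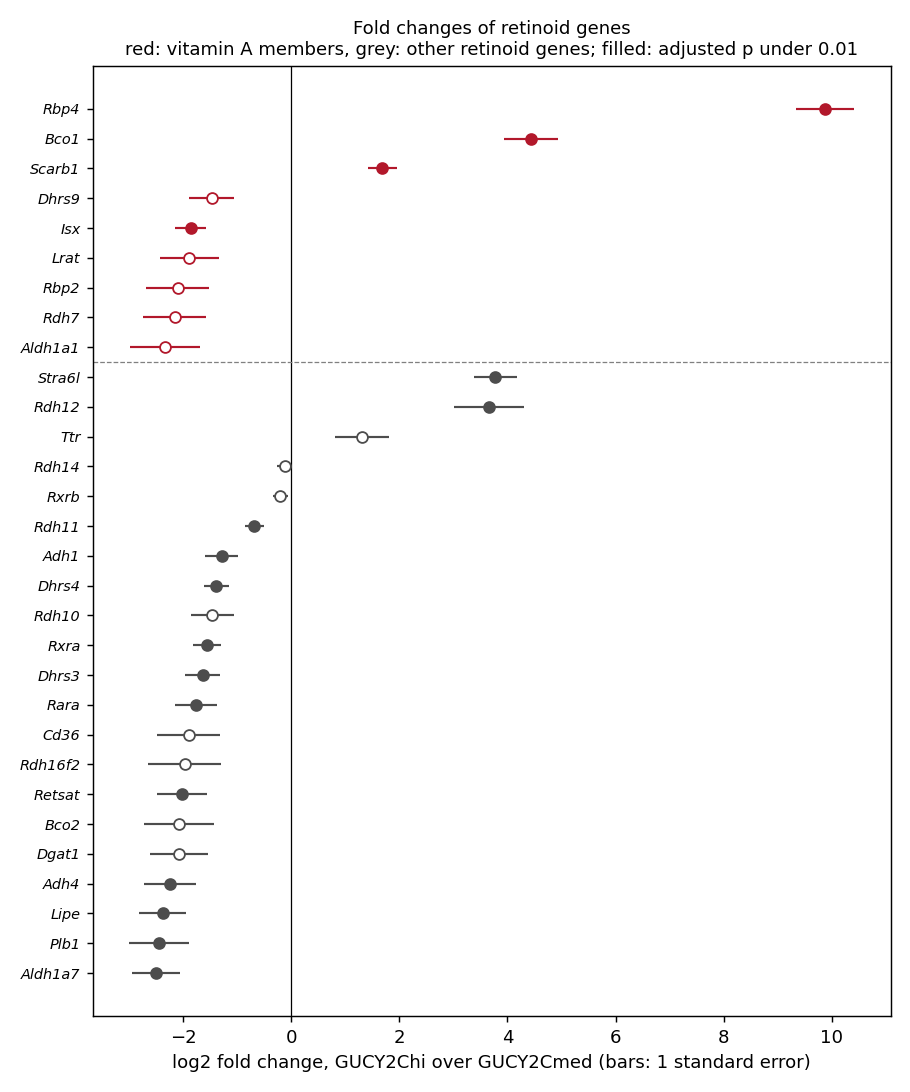
Log2 fold change of GUCY2Chi over GUCY2Cmed for the 9 vitamin A genes (red) and the 21 other retinoid genes that are named (grey), with bars of 1 standard error. Filled points have an adjusted p under 0.01 in edgeR; Rbp4 is farthest right at 9.87 and Aldh1a7 farthest left at -2.50.

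**Figure D5:**
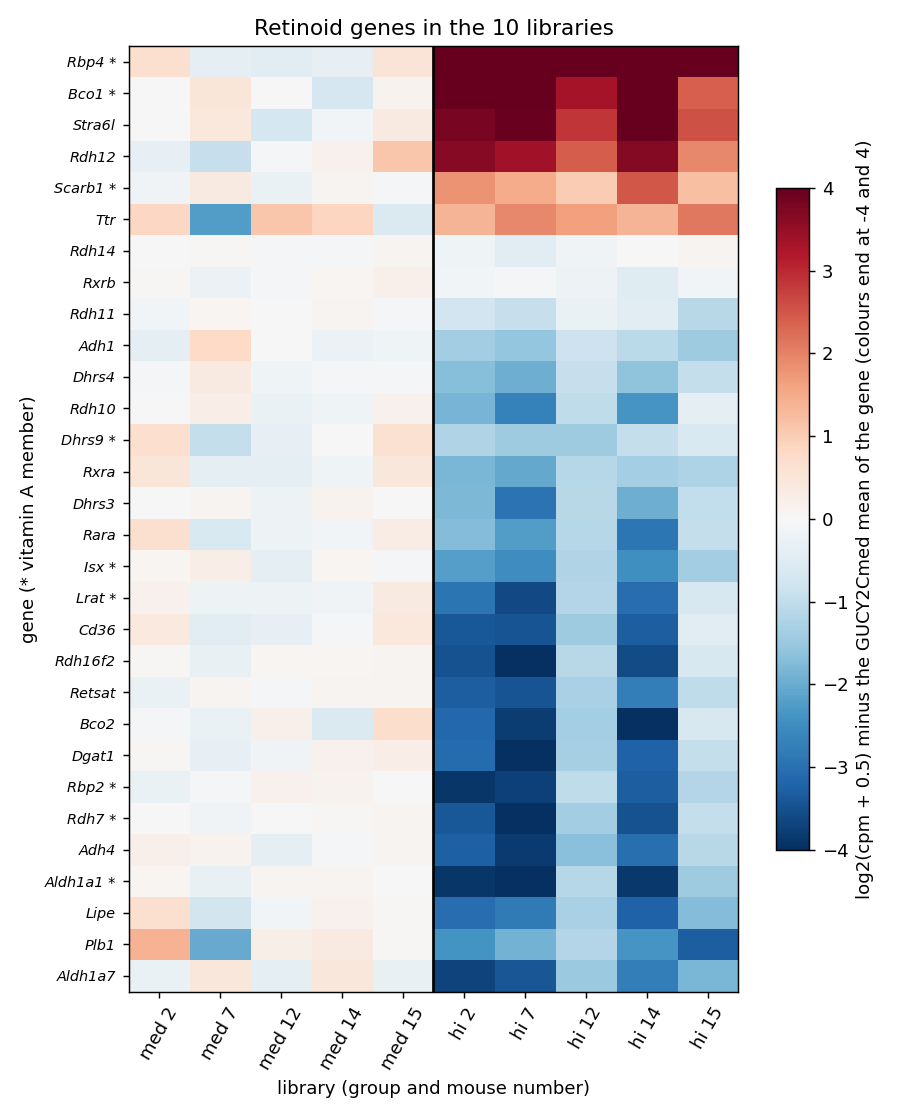
Difference of log2(cpm + 0.5) from the GUCY2Cmed mean of each gene, for the 30 genes (rows) and 10 libraries (columns, group and mouse number), with red above and blue below that mean and colours ending at -4 and 4. In the GUCY2Chi libraries of mice 12 and 15 most of the lower genes are paler blue than in those of mice 2, 7 and 14.

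For each of the 9 genes, the 3 genes with the most similar pattern were found by Pearson's correlation of log2(cpm + 0.5) over the 10 libraries, among 9969 genes with at least 5 cpm. These values describe points that share the contrast between the groups, and no p is given. Rbp4 was most like Scgn (r = 0.997), followed by Dnaja4 and Ambp, and Bco1 most like Phlda1 (0.995), then Hunk and Gch1. Scarb1 was most like Cd44 (0.983), Wwox and Rbm48. The genes nearest to the lower members were Eci3 (0.995), Cmbl and Cyp3a11 for Rbp2, Slc5a6 (0.998), Hsd17b6 and Slc6a20a for Lrat, and Dgat1 (0.998), Cryl1 and Vmp1 for Rdh7. For Aldh1a1 they were Dpep1 (0.997), Cd302 and Gstp-ps, and for Isx Ckmt1 (0.997), Gramd3 and Rmdn3. Dhrs9 had weaker neighbours, with Nudt4 at 0.945, then Fndc10 and Pink1.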

How the data were processed

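The deposited table of the authors gives unnormalized counts of reads for each gene and library. Paired-end reads were aligned with STAR and counted at the sequencing company; the counting program was not given in the sources used here. Deposited FPKM values were used only for the order of levels, and 10 further normalized columns, the authors' own fold changes and their p-values were not used. The labels name the build mm9, but 99.8% of 37708 gene positions matched GRCm38.p6 and 9.66% of 28365 matched NCBIM37. The submitters' processing notes name limma 3.40.6 and edgeR 3.26.8.

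A gene was kept where at least 3 of 10 libraries exceeded 0.5 cpm (15703 of 54532). Groups were compared in R 4.3.3 with edgeR 4.0.16 (TMM factors, quasi-likelihood test, Benjamini-Hochberg adjusted p under 0.01 over all genes tested, no term for the mouse). The biological coefficient of variation was 0.458. Alternatives were limma-voom (limma 3.58.1), DESeq2 1.42.0, the mouse as replicate block, library size only, RLE factors, other filters and thresholds, and libraries left out. Scripts were tested on simulated data. Figures were drawn with Python 3.11.15 and matplotlib 3.10.9.

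The labels say that 5 mice were sorted into the groups, and the numbers shared by the titles of the libraries were read as mouse numbers, which no label states; the deviations of same-numbered libraries from their group means correlated at -0.07, -0.17, 0.27, -0.10 and 0.05 for mice 2, 7, 12, 14 and 15. No count columns were identical. Replicates are separate mice.

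All 9 members were named, and of 44 other retinoid genes those past the threshold or with a mean of at least 20 cpm, plus 3 genes with the most similar pattern to each member. A further retinoid gene was left out of the list and is not reported here. The members, lists, motifs and alternatives were chosen with earlier results of these data known. Promoter sequences came from RefSeq (GRCm38.p6). Genes that overlap a member had mean counts of at most 21.3.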

Additional observations from a re-analysis of the deposited data

Results flagged for a closer look

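Within each group of 5 libraries, the vitamin A genes and the named retinoid genes were examined for 1 library far from the other 4 by Dixon's test. Of 60 groups 3 held such a library, and chance alone gives about 1 group in 20. All 3 were GUCY2Cmed values of mouse 7. Adh1 had 7654 cpm there, against 4390 cpm in the nearest library. Dhrs4 had 475 cpm, against 358 cpm in the nearest. Rdh16f2 had 25.8 cpm, below the nearest value of 33.0 cpm. None of the 9 vitamin A genes held such a library in either group.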

How the results depend on the processing

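Bco1, Scarb1, Isx and Rbp4 kept their direction and call in all 20 alternatives, with log2 fold changes of 4.23 to 4.96, 1.39 to 2.0, -2.54 to -1.59 and 9.66 to 10.20. For Rbp2, Lrat, Rdh7 and Aldh1a1 the log2 fold change passed the threshold in limma-voom (-2.63, -2.38, -2.74 and -3.04), in DESeq2 (-2.07, -1.85, -2.12 and -2.31; Dhrs9 -1.46), with the mouse as replicate block in limma-voom (-2.71, -2.18, -2.80 and -3.13), and, as the choice of libraries favours since these hold the highest GUCY2Chi values, without GUCY2Chi libraries 12 and 15 (-3.62, -3.31, -3.70 and -4.14) and without both libraries of these mice (-3.57, -3.27, -3.69 and -4.14). Leaving out 1 library at a time gave -2.56 to -1.79 for Rbp2, -2.42 to -1.59 for Lrat, -2.68 to -1.84 for Rdh7, -2.89 to -2.02 for Aldh1a1 and -1.67 to -1.22 for Dhrs9. The 3 higher calls among the 9 genes held throughout. The lower calls, 1 in edgeR, were 5 in limma-voom, 6 in DESeq2, 5 with the replicate block in limma-voom (1 in edgeR), 5 without GUCY2Chi 12 and 15, 5 without both mice, 6 at an adjusted p under 0.05, and 1 to 4 with 1 library left out.

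Lower calls among the other retinoid genes, 11 in edgeR, were 18 in limma-voom, 18 in DESeq2, 7 with library size only, 20 without GUCY2Chi 12 and 15, 19 at 0.05 and 4 to 15 with 1 library left out. Their higher calls, 2 in edgeR, were 1 with the mouse as replicate block in edgeR, 1 with at least 10 counts in every library, and 2 to 3 with 1 library left out. Over all genes, 2186 higher and 1381 lower calls became 1294 and 779 with the mouse as replicate block in edgeR, 3367 and 2767 at 0.05, and 1636 to 2534 and 512 to 1609 with 1 library left out. The fewest lower calls came without GUCY2Chi of mouse 2 (512), 7 (584) and 14 (692) and GUCY2Cmed of mouse 15 (532), 2 (683), 12 (744) and 14 (758). Lower calls were 2235 in DESeq2, 2186 without GUCY2Chi 12 and 15, and 557 with library size only, which moved the median of all genes by 0.29 and the share of higher calls from 61.3% to 83.9%. Rdh14 changed sign with library size only (0.16) and with at least 10 counts in every library (0.0097), and Rxrb with library size only (0.10).

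By deposited FPKM the order of levels in GUCY2Chi cells placed Aldh1a1 3rd, Rdh7 4th, Scarb1 5th, Isx 6th and Bco1 7th, and in GUCY2Cmed cells Aldh1a1 2nd, Rdh7 3rd, Scarb1 5th, Lrat 6th, Bco1 8th and Dhrs9 9th. The cause of these changes was not tested. Beyond those given with the genes, the replicate block in edgeR changed no call of a named gene. Depth limits Dhrs9, the GUCY2Cmed values of Rbp4 and Bco1, and the 11 untested genes.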

Other observations

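Some low genes of the retinoid pathway, singled out after their values were seen, are given here. Cyp26a1, which encodes the enzyme that degrades retinoic acid, had 1.23 ± 0.860 cpm (SD, n = 5) in GUCY2Chi and 0.0975 ± 0.139 cpm (SD, n = 5) in GUCY2Cmed cells, with at most 32 counts in any library. It was higher in 5 of 5 mice, the groups overlapped, and its adjusted p of 0.0154 from edgeR missed the threshold. Cyp26b1, of the same family, had 0.0672 to 2.96 and 0.161 to 1.28 cpm. Rarg, a retinoic acid receptor gene, had 0.454 to 1.45 and 0.0803 to 0.676 cpm (adjusted p = 0.163). Adh7, an alcohol dehydrogenase gene active on retinol, had 5.20 ± 2.74 cpm (SD, n = 5) in GUCY2Chi and 5.22 ± 3.61 cpm (SD, n = 5) in GUCY2Cmed cells (adjusted p = 0.994). Rbp7, a cellular retinol carrier gene, had 1.09 to 12.8 and 9.27 to 25.2 cpm (adjusted p = 0.0253), and its GUCY2Chi level was spread widely.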
